A study of Homo sapiens with 4 samples.

Results

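Kinesins are motor proteins that walk along, or take apart, microtubules with energy from ATP. The genes described here are the protein-coding genes of GENCODE release 44 whose symbol is KIF followed by a number and, for most, a letter, and they numbered 39 among the 19970 protein-coding genes of chromosomes 1 to 22 and X. They were sorted by the known work of the protein into 14 mitotic genes, 13 transport genes, 6 cilium genes and 6 others. H3K27ac, the acetylation of lysine 27 on histone H3 that marks active promoters and enhancers, had been mapped by chromatin immunoprecipitation with sequencing (ChIP-seq) in MDA-MB-231 and Hs578T, 2 lines of triple-negative breast cancer, with 2 replicates of each. Every culture had been serum-starved for 8 h and exposed to TWEAK, a cytokine of the TNF family, at 10 ng/ml for 48 h, and per the labels TWEAK was then washed out for 72 h. Untreated cultures and cultures under continued TWEAK are not analysed here, and a response of any kinesin gene to the treatment therefore cannot be read from these values. Cancer cell lines grow as uniform cultures outside a tumour, and each line came from a single donor, which limits both as models.

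The measurement was a list of peaks per library. A peak is a stretch of genome where the authors' peak caller found more H3K27ac reads than in its background, and its fold enrichment is the ratio over that background. Replicate 1 of MDA-MB-231 held 318 peaks in all, against 43421 to 46363 in the other 3 lists, and of its promoter peaks none lay at a kinesin gene. It marked 0.0601% of all protein-coding genes. This list says little about any gene, so MDA-MB-231 is in effect represented by 1 library. Values below are given in the order MDA-MB-231 replicate 2, Hs578T replicate 1 and Hs578T replicate 2. As a check of the lines, the promoters of all 5 mesenchymal genes looked up (VIM, CD44, AXL, ZEB1 and SNAI2) carried a peak in each of these 3 lists, and those of all 5 luminal genes (ESR1, PGR, FOXA1, GATA3 and ESRP1) carried none. No test was made between lines: with 2 lists against 2 the smallest exact two-sided p is 0.333. Read depth was unknown, and fold enrichment depends on each library, so it is compared between lists by rank alone, while widths are given in bp and may also move with depth.

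Mitotic kinesins build the spindle, move chromosomes and complete cell division. KIF11 pushes spindle poles apart, KIF18A damps the movements of chromosomes at the metaphase plate, KIF23 forms the centralspindlin complex of the central spindle, and KIF20A carries the chromosomal passenger complex to it. Transcription of many such genes peaks in late cell cycle and is known to run through a short promoter element, the cell cycle genes homology region (CHR), often with CCAAT boxes bound by NF-Y just upstream. Transport kinesins carry vesicles, organelles and protein complexes at all times of the cycle, and several of them serve neurons.

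The promoter sequences of 4 mitotic genes are shown first because CHR or NF-Y motifs can be seen in each, followed by the transport genes KIF5B and KIF13A, whose promoter peaks were the strongest of that group. Each is the RefSeq sequence of assembly GRCh38.p14 for the 250 bases that end just before the start site, written 5′ to 3′ along the gene. Capitals mark the CHR (TTTGAA or TTCGAA) and the NF-Y box (CCAAT), on either strand.
KIF18A, chr11:28108157-28108406, minus strand: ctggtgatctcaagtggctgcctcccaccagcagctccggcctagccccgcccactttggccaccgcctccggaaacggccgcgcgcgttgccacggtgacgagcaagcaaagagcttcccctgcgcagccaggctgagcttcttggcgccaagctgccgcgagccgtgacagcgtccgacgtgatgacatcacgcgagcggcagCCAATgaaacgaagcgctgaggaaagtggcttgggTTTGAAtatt
KIF11, chr10:92592880-92593129, plus strand: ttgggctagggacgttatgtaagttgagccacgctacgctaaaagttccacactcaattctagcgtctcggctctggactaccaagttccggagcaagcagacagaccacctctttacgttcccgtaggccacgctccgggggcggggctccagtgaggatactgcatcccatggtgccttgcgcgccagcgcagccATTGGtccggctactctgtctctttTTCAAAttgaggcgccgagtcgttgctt
KIF23, chr15:69414099-69414348, plus strand: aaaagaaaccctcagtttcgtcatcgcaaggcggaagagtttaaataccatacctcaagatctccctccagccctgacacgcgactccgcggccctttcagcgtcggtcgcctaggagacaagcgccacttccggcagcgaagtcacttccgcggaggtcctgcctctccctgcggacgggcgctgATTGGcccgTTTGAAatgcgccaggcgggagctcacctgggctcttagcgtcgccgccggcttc
KIF20A, chr5:138178862-138179111, plus strand: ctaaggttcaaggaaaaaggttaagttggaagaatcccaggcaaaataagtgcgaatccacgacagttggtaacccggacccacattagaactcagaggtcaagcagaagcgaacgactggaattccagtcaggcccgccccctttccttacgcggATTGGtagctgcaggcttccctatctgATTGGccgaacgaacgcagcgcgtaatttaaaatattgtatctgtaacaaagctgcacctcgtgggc
KIF5B, chr10:32056426-32056675, minus strand: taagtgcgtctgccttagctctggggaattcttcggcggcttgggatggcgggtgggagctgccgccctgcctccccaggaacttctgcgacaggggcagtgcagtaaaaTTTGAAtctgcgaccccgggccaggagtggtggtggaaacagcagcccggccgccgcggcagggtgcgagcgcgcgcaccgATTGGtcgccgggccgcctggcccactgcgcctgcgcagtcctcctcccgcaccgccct
KIF13A, chr6:17987636-17987885, minus strand: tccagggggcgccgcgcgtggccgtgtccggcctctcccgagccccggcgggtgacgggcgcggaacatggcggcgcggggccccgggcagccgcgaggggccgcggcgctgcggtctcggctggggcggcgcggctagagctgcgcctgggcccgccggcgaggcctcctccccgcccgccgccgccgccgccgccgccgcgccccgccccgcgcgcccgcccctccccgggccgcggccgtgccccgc

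Counting from the start site, the CCAAT of KIF18A began at base -45 and its CHR at -10. In KIF11 the NF-Y box began at -53 and the CHR at -28, and in KIF23 they began at -64 and -55. The promoter of KIF20A had NF-Y boxes at -94 and -67, and neither CHR word was in its window, which says nothing more than that these letters are not there. KIF5B carried both motifs in the opposite order, with the CHR at -140 and the NF-Y box at -59, and KIF13A carried neither.

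Across the family the share of promoters with a CHR differed by role. A RefSeq promoter of 300 bases (250 before and 50 after the start site) was at hand for 33 of the 39 genes, each at the same start base as in GENCODE. The genes without one were KIF5A, KIF13B, KIF19, KIF27, KIF21B and KIF26B. A CHR was found in 10 of 14 mitotic promoters (71.4%) and in 1 of 11 transport promoters (9.09%), beside 12.8% of the promoters of all 14913 protein-coding genes with a sequence. The NF-Y box was in 10 of 14 mitotic (71.4%) and 4 of 11 transport promoters (36.4%), beside 36.8% of all. Both motifs stood together in 9 mitotic promoters (64.3%), in that of KIF5B among the transport genes, and in 5.46% of all promoters. Among all genes with a promoter peak in at least 2 lists the CHR share was 10.3%, below that of all promoters.

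The arrangement was shared as well. In all 9 mitotic promoters with both motifs the nearest NF-Y box lay upstream of the CHR, and in 8 of them their first bases were at most 40 bases apart, a distance chosen after the values were seen. The gap was 24 bases in KIF4A and in KIF4B, 25 in KIF11, 23 in KIF14, 35 in KIF18A, 34 in KIF18B, 39 in KIF22 and 9 in KIF23, and 122 in KIF20B. KIF4B is a copy of KIF4A, and the letters around their NF-Y boxes are nearly the same. These genes are therefore not separate cases of the motifs or of their arrangement. Of all 814 promoters with both motifs, 44% had the NF-Y box upstream and 18.4% had it upstream within 40 bases. For the 425 of them at genes with a promoter peak in at least 2 lists, these shares were 50.4% and 24.2%. The mitotic CHR words began between -55 and 31 bases from the start site. The GC box (GGGCGG, either strand), a site of the general activator SP1, did not separate the groups: it was in 12 of 14 mitotic and 11 of 11 transport promoters, beside 62.6% of all. The AP-1 motif (TGACTCA or TGAGTCA) was in none of the 33 promoters, beside 3.49% of all.

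**Figure D1:**
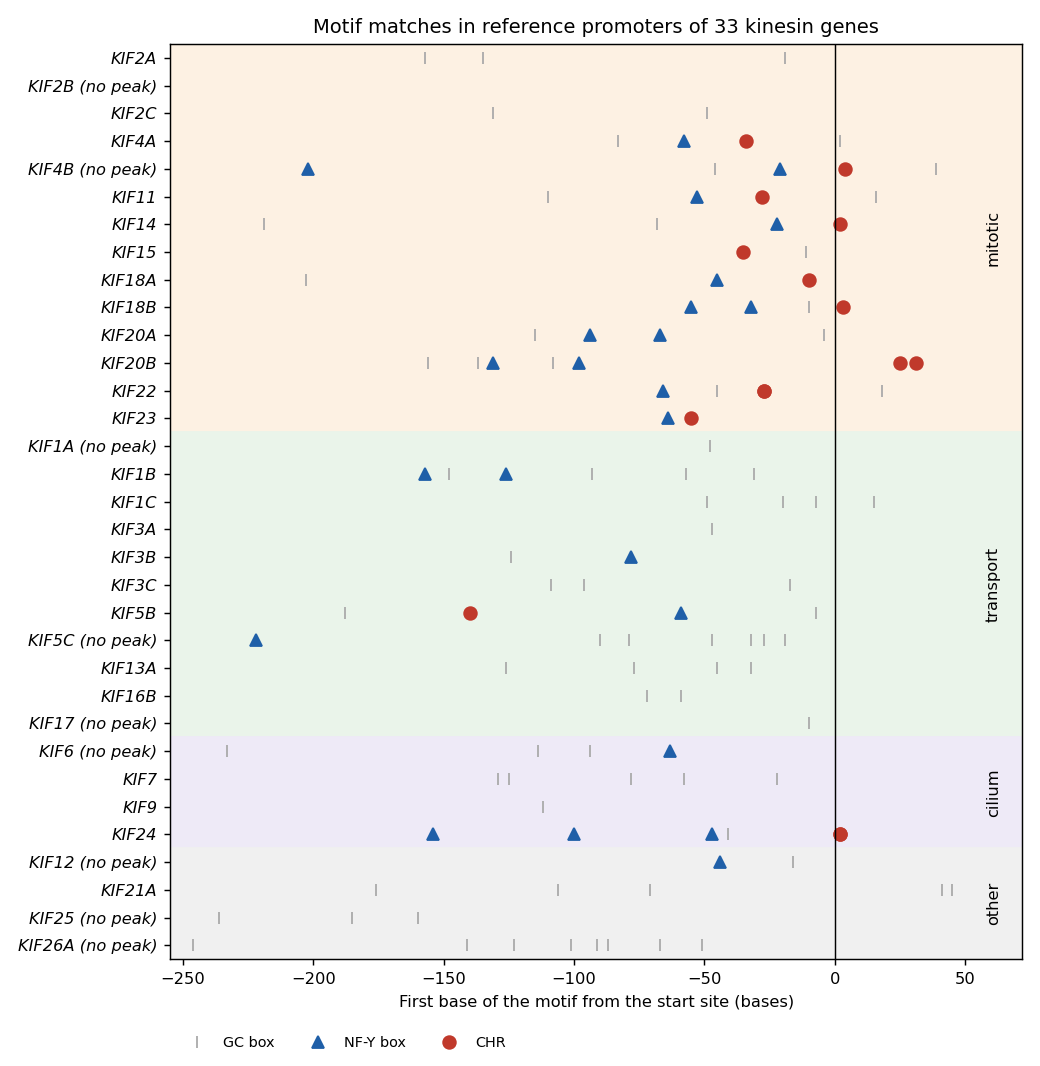
Position of CHR, NF-Y box and GC box matches on either strand in 33 reference promoters, one row per gene, by the first base of the match in bases from the start site; shading separates the role groups and genes without a promoter peak are marked. The CHR matches of mitotic genes gather near the start site, with an NF-Y box to their left in 9 of 10.

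A promoter peak, one that touched the stretch from 1 kb before to 1 kb after the canonical start site, was found at 26 of the 39 kinesin genes (66.7%) in each of the 3 large lists. The background was 58.1%, 58.2% and 56.4% of all protein-coding genes in these lists, and 57.7% in at least 2 lists. The same 26 genes were marked each time, and no kinesin promoter was marked in one line alone. By role, 12 of 14 mitotic genes were marked (85.7%), 9 of 13 transport genes (69.2%), 4 of 6 cilium genes (66.7%) and 1 of 6 others (16.7%). When peaks were limited to the strongest 50% of each list, 12 mitotic genes were still marked but 4 transport genes, beside 44.7% of all protein-coding genes. Without genes whose window holds another protein-coding start site, 7 of 9 mitotic and 8 of 12 transport genes were marked, beside 53% of all genes with an unshared window.

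The 13 unmarked genes included several best known from neurons. Among transport kinesins these were KIF1A, which carries synaptic vesicle precursors, KIF5A and KIF5C, the neuronal forms of conventional kinesin, and KIF17, which moves receptors in dendrites and works in cilia. Unmarked cilium genes were KIF6 and KIF19, a kinesin that limits the length of motile cilia. In the remaining group KIF12, KIF21B, KIF25, KIF26A and KIF26B had no promoter peak, and KIF21A, which steadies microtubule growth near the cell cortex, had one. The unmarked mitotic genes, KIF2B and KIF4B, were the only kinesin genes with a single exon, and the nearest peak to their start sites lay 99.4 to 99.8 kb and 46.8 to 72.1 kb away. KIF4B is an intronless copy of KIF4A. Reads from near-identical copies can be lost in mapping, and whether this affected KIF4B was not tested, so its value is uncertain.

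For 7 of the other unmarked genes the nearest peak lay more than 50 kb from the start site in all 3 lists, from 53.6 kb at KIF19 to 217 kb at KIF26A. These were KIF1A (101 kb), KIF6 (157 kb), KIF12 (78.3, 122 and 122 kb), KIF19 (53.6, 90.6 and 53.7 kb), KIF21B (126 kb), KIF26A (217 kb) and KIF26B (62 kb). KIF5A had a peak 2.8, 2.73 and 2.81 kb upstream, and that peak lay at the start site of its neighbour DCTN2, a dynactin subunit. The nearest peak to KIF17 was 13.7 kb upstream in MDA-MB-231, at the start of SH2D5, and 6.59 and 6.82 kb upstream in Hs578T. KIF25 had its nearest peak 9.26, 9.44 and 9.38 kb downstream. At KIF5C the distance differed between lists: the nearest peak was 118 kb away in the first and second lists and 4.54 kb upstream in Hs578T replicate 2, with a fold enrichment of 2.76.

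The promoter peak of KIF18A, encoded on the minus strand of chromosome 11 with its start site at 28108156 (hg38), measured 5143, 5433 and 5512 bp. The peak filled the whole window of 2001 bp in each list and was wider than that of most marked genes, at width percentiles of 92.6, 91.9 and 93.6. Its fold enrichment was 13.3, 14.1 and 13.8, at percentiles of 74.3, 82.4 and 89.9 among all marked genes. The width varied little, with a mean of 5363 ± 194 bp (SD over the 3 lists). Its upstream edge stood at -2812, -2872 and -2968 bp from the start site, past the start of METTL15, a gene read in the opposite direction from 232 bp away. The share of this peak that belongs to either gene cannot be told apart. Over all marked protein-coding genes the median width was 1856, 2006 and 1870 bp with a shared window and 1768, 1858 and 1766 bp without one.

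KIF11 had a promoter peak of 4520, 4054 and 3812 bp with a fold enrichment of 16.3, 16.9 and 12.5, at percentiles of 84.9, 89.7 and 86.2. No other protein-coding start site lay in its window, and the peak filled the window in each list. KIF23 had the strongest promoter peak of the family in all 3 lists, with a fold enrichment of 23.3, 23 and 16.5 at percentiles of 96.1, 97 and 95.1. Its width was 3297, 3013 and 2594 bp, with most of the peak downstream of the start site. KIF20A was nearer the middle, with 2138, 3059 and 2745 bp, a fold enrichment of 11.4, 12 and 10.1, and percentiles of 64.6, 74.4 and 75.4, and its window holds the start site of BRD8 482 bp away.

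At the low end of the mitotic group stood KIF22, a chromokinesin that binds DNA, with a fold enrichment of 7.34, 5.51 and 4.77 at percentiles of 36, 26.1 and 25. The widest single promoter peak of the family was that of KIF18B, a partner of the microtubule depolymerase KIF2C, but in Hs578T replicate 1 alone: 10063 bp there, against 2635 and 2515 bp in the other 2 lists. It ran 8743 bp into the gene, over ground that the other lists gave as separate peaks. KIF18B was named after its values were seen.

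As a group, marked mitotic genes had wider and higher-ranked promoter peaks than marked transport genes in each of the 3 lists. The median width was 2169, 2431 and 2356.5 bp over 12 mitotic genes and 1428, 1606 and 1294 bp over 9 transport genes, beside 1792, 1897 and 1804 bp over all marked genes. The mean over lists was 2319 ± 135 bp for mitotic and 1443 ± 157 bp for transport genes (SD, n = 3 lists). Median fold percentiles were 66.6, 65.1 and 74.4 for mitotic and 20.1, 31.8 and 24.4 for transport genes, with means of 68.7 ± 5.0 and 25.5 ± 5.9. For the 4 marked cilium genes they were 75, 72 and 68.5, so a high rank was not particular to mitotic genes. The fold enrichment was above the list's median at 9, 9 and 10 of 12 mitotic genes, and at 2 of 9 transport genes each time. The transport medians include the kinesin-2 genes KIF3A, KIF3B and KIF3C, and the median width was that of KIF3C in each list. No median without them is given. Of the other marked transport genes, KIF1B, KIF5B and KIF13A had peaks wider than the median of all marked genes in each list. KIF13B and KIF16B had narrower ones, and KIF1C lay close to that median. The groups overlapped, since KIF5B ranked above most mitotic genes and KIF22 and KIF2A ranked among the transport genes. Among the strongest 50% of peaks the median width over the transport genes marked in each list was 2162.5 bp as a mean over lists. It was 2318.8 bp for the 12 mitotic genes. The roles were set by hand and these genes were picked with results known, so no test of the difference is given.

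**Figure D2:**
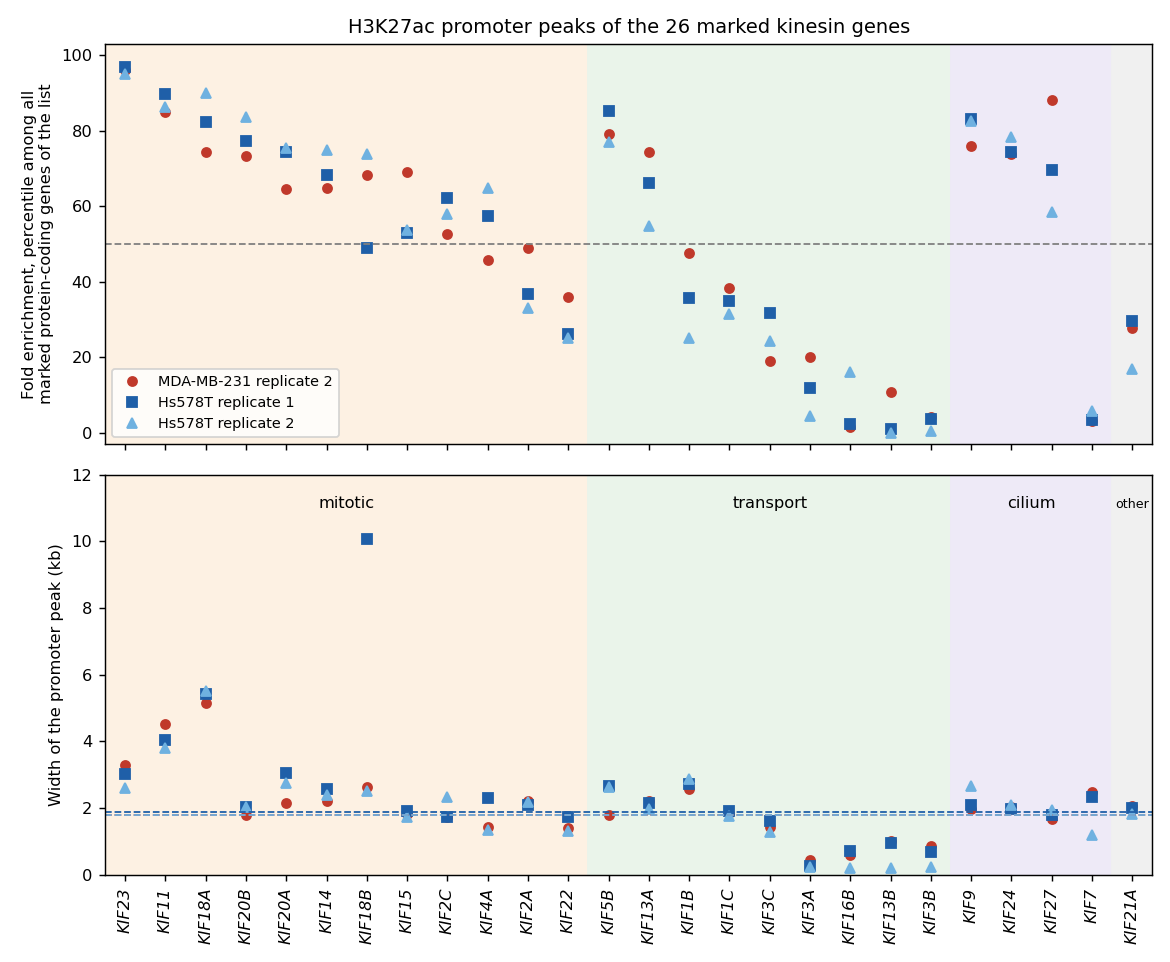
Fold enrichment of the promoter peak as a percentile among all marked protein-coding genes of the same list (top) and width of the widest promoter peak in kb (bottom) for the 26 marked kinesin genes, ordered by mean percentile within each role group; each symbol is 1 list, the upper dashed line is the 50th percentile, and the lower dashed lines are the median widths of each list. Mitotic genes lie mostly above the upper line and 7 of the 9 transport genes below it.

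The transport genes split into a few strong promoters and a larger weak set. KIF5B, the ubiquitous heavy chain of conventional kinesin, had a fold enrichment of 14.5, 15.1 and 10.4 at percentiles of 79.2, 85.3 and 77.1 and a width of 1803, 2652 and 2627 bp. KIF13A, which moves recycling endosomes, followed at percentiles of 74.3, 66.3 and 54.9. KIF1B came next at 47.6, 35.7 and 25, although its peak of 2562, 2721 and 2868 bp was wider than that of KIF13A.

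Lowest by mean percentile was KIF3B, with a fold enrichment of 3.53, 3.05 and 2.65 at percentiles of 4.21, 3.73 and 0.546 and a width of 855, 681 and 220 bp. KIF3B is the partner of KIF3A in heterotrimeric kinesin-2, which builds cilia, and KIF3A had a peak of 457, 271 and 221 bp. Peaks at KIF13B (1013, 948 and 215 bp) and at KIF16B (600, 709 and 217 bp), a kinesin of early endosomes, were small as well. In Hs578T replicate 2 the promoter peaks of these 4 genes did not cover the start site itself, nor did those of KIF7, and in Hs578T replicate 1 the peak of KIF3A did not. Over the family 26, 25 and 21 of the 26 promoter peaks covered the start site, and all 12 mitotic ones did so in each list. Over all marked genes the share was 90.9%, 91.1% and 88.4%. KIF3A and KIF16B were named after their values were seen.

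**Figure D3:**
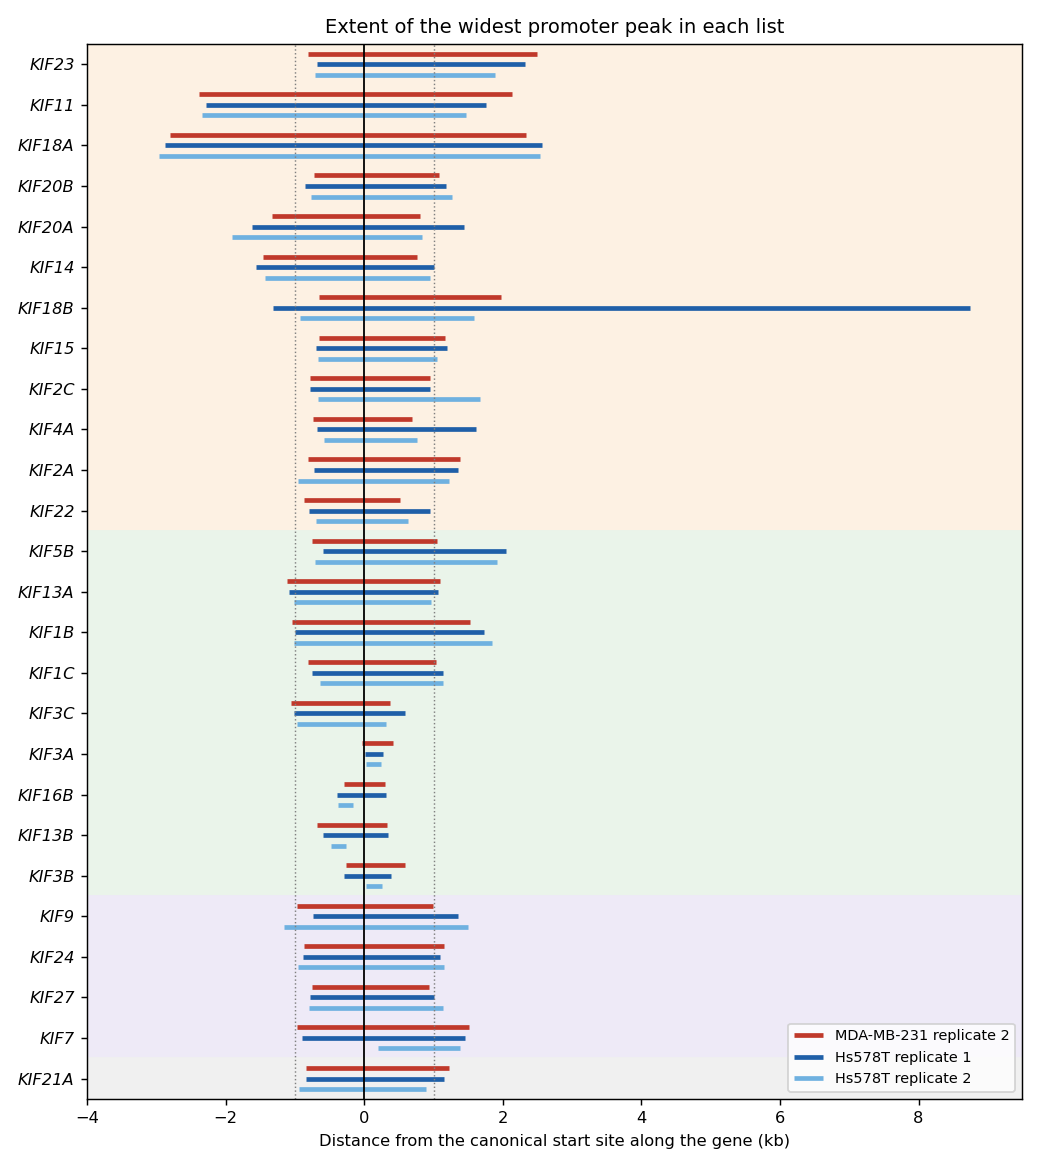
Extent of the widest promoter peak of each marked kinesin gene in each list, as distance from the canonical start site in kb along the gene; dotted lines bound the window of 1 kb on either side, and shading separates mitotic, transport, cilium and other genes from top to bottom. The peaks of KIF18A and KIF11 overrun the window on both sides, and 4 transport genes have peaks of 215 to 221 bp in Hs578T replicate 2.

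Among the cilium genes KIF9, KIF24 and KIF27 ranked high and KIF7 low. KIF24, which restrains the building of cilia in cycling cells, had percentiles of 73.8, 74.5 and 78.3, with the start of NUDT2 301 bp away in its window. It was the cilium gene with both a CHR and an NF-Y box in its promoter. KIF9, a kinesin of motile cilia and flagella, had percentiles of 76.1, 83.1 and 82.5, and its window holds the start of KLHL18 145 bp away. For KIF27 they were 88.1, 69.5 and 58.6. KIF7, which acts at the tip of the cilium in Hedgehog signalling, had a weak promoter peak at its canonical start site. Its fold enrichment was 3.39, 3.01 and 3.25, at percentiles of 3.26, 3.33 and 5.88. The width was 2485, 2346 and 1188 bp, at width percentiles of 69.9, 63.5 and 26. In Hs578T replicate 2 the window of KIF7 held 2 peaks, and the width is that of the wider. A stronger peak, with a fold enrichment of 16.7, 17.2 and 19.2, had its near edge at -5.84, -6.39 and -6.40 kb from that start site. It spanned the far 5′ end of the annotated KIF7 gene, so the low rank holds for the canonical start site alone. KIF21A had percentiles of 27.7, 29.6 and 16.9.

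The ranks of the kinesin promoters were alike between lists and lines. Over the 26 marked genes Spearman's rho of fold enrichment was 0.932 between MDA-MB-231 replicate 2 and Hs578T replicate 1, 0.872 between MDA-MB-231 replicate 2 and Hs578T replicate 2, and 0.963 between the Hs578T replicates. Widths were ranked less alike, at 0.882, 0.761 and 0.811. Over the 11112 protein-coding genes marked in all 3 lists rho of fold enrichment was 0.926, 0.908 and 0.958. These are descriptions across genes of the same genome, which share base composition and mappability.

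Base composition set the unmarked kinesin genes apart less than it did other unmarked genes. The ratio of observed to expected CpG within 500 bp on either side of the start site had a median of 0.814 over the 26 marked and 0.742 over the 13 unmarked kinesin genes, while over all genes the medians were 0.79 and 0.388. The ratio reached 0.6, a usual mark of a CpG island, in 25 of 26 marked (96.2%) and 9 of 13 unmarked kinesin genes (69.2%). Over all protein-coding genes it did so in 88.1% of the marked and 36.6% of the unmarked ones. KIF18A was the marked kinesin gene below 0.6, at 0.53. KIF1A had a ratio of 0.902 and no promoter peak. Another protein-coding start site stood within 1 kb of 8 of the 26 marked genes and of none of the 13 unmarked ones, beside 21.2% and 4.42% over all genes.

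Inside the 39 kinesin genes there were 35, 36 and 44 H3K27ac peaks away from any protein-coding start site. By the mean over the 3 lists they covered most sequence at KIF13A, with 10838, 11041 and 11509 bp, then at KIF13B with 10157, 8462 and 7605 bp and at KIF25 with 8936, 8351 and 8908 bp. KIF11 followed with 4569, 7303 and 8915 bp and KIF18A with 5236, 6183 and 9306 bp. In Hs578T replicate 2 alone KIF13B came after KIF18A, KIF11 and KIF25. KIF25, without a promoter peak, was thus among the genes with the most covered sequence. At KIF25 a peak of 6995, 6655 and 6759 bp with a fold enrichment of 14.1, 14.2 and 11.3 lay between 33.17 and 40.30 kb downstream of the start site.

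KIF18A held 4, 4 and 6 peaks within the gene, with fold enrichments of at most 4.88, 5.2 and 5.01, and a further peak between -38.61 and -36.39 kb from the start site with a fold enrichment of 6.37, 5.2 and 5.6. A peak from -15.15 to -14.80 kb was in the MDA-MB-231 list alone, and a pair between 35.41 and 37.54 kb into the gene was in Hs578T replicate 2 alone, each with a fold enrichment of at most 3.34. KIF11 had another strong peak between -20.64 and -16.61 kb from its canonical start site, partly within the annotated gene, but it lay at the start site of IDE, the insulin-degrading enzyme. That peak was not counted with the gene-body peaks.

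An AP-1 motif (TGACTCA, or TGAGTCA, on either strand) was present in 19 of 35, 26 of 36 and 24 of 44 gene-body peaks of kinesin genes (54.3%, 72.2% and 54.5%), beside 51.6%, 50.3% and 49.7% of the gene-body peaks of all genes. AP-1 is the dimer of JUN and FOS proteins that binds many enhancers. The median width of these peaks was 1862, 1578 and 1188.5 bp at kinesin genes and 1279, 1283 and 1244 bp over all genes, and the part of width in the AP-1 shares was not tested. The sequences below come from 3 peaks found in all 3 lists, with every AP-1 match in capitals, and are from the plus strand of hg38 within introns of the canonical transcripts. KIF18A is shown because its locus is described above, and KIF13A and KIF25 as examples of genes with much sequence covered.
KIF18A, chr11:28086747-28086813, plus strand: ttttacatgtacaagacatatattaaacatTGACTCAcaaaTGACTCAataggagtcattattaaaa
KIF13A, chr6:17864425-17864491, plus strand: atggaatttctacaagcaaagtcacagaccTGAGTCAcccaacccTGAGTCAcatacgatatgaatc
KIF25, chr6:168032557-168032623, plus strand: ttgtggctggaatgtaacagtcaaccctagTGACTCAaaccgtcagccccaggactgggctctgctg

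The KIF18A site lay 21.38 kb downstream of the start site, in a peak with a fold enrichment of 4, 4.43 and 4.51. The KIF13A site lay 123.18 kb downstream, in a peak with a fold enrichment of 9.91, 9.92 and 8.61. A match is a description of the letters and shows no bound factor.

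**Figure D4:**
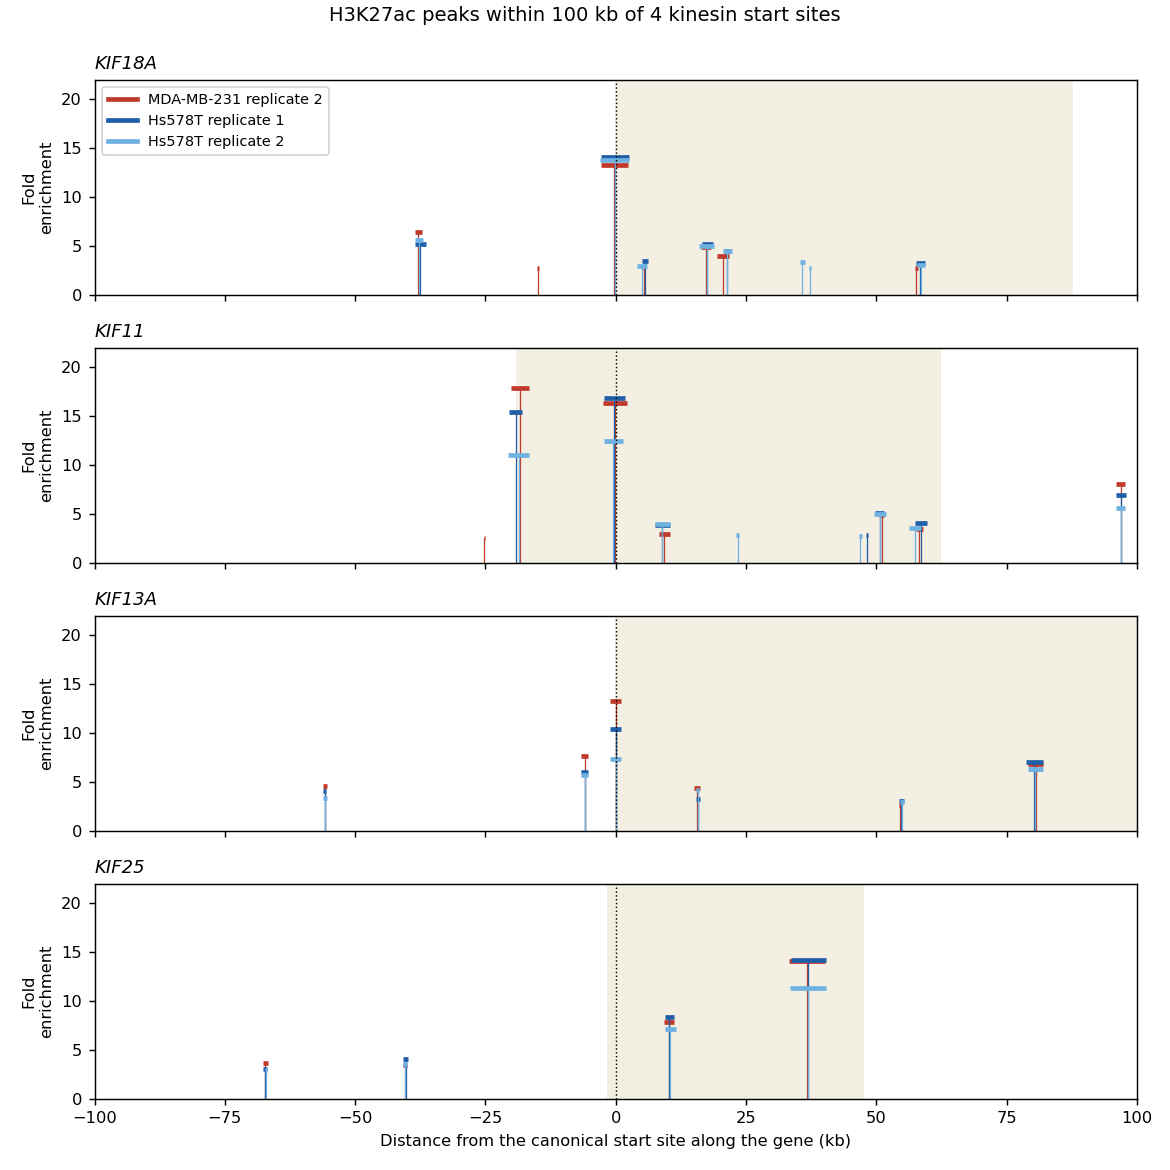
H3K27ac peaks within 100 kb of the start sites of KIF18A, KIF11, KIF13A and KIF25, by distance from the start site in kb along the gene (x) and fold enrichment (y); each horizontal bar is 1 peak of 1 list drawn to its width, and the shaded area is the annotated gene. The promoter peak is the tallest at KIF18A, and KIF25 has none.

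Further genes of these processes were looked up in the same way. The promoters of all 16 mitotic partner genes, among them AURKB, RACGAP1 and PRC1, which work with KIF20A, KIF23 and KIF4A, carried a peak in each large list, with median fold percentiles of 72.2, 78.4 and 82.5. Of the 11 cargo adaptor genes 7 were marked in each list, with median percentiles of 24.6, 34.3 and 34.7. Over all protein-coding genes 58.1%, 58.2% and 56.4% were marked, so the share of marked adaptors lay near the background. The unmarked adaptors were KLC3, TRAK1, MAPK8IP1 and MAPK8IP2. Of 7 genes for activators of late cell cycle transcription 7, 7 and 6 were marked, and the exception was MYBL2 in Hs578T replicate 2. All 5 kinesin genes whose symbols fall outside the naming rule (CENPE, KIFC1, KIFC2, KIFC3 and STARD9) were marked in each large list.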

How the data were processed

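H3K27ac ChIP-seq libraries of MDA-MB-231 and Hs578T cells were grouped by line and replicate from their titles. The authors trimmed reads with Trimmomatic, mapped them to hg38 with Bowtie2, called peaks per library with MACS2 with subtraction of input, and removed blacklisted regions. Versions and settings are not given in the sources used here. The deposited lists hold 9 columns: position, a score, the fold enrichment (a ratio over the library's own background), and −log10 p and q. The deposited score is 10 times the −log10 q-value without decimals. The labels give 72 h of washout, and the text of the study a longer one outside its methods.

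Genes and canonical start sites came from GENCODE release 44 on hg38, and promoter sequences from RefSeq (GRCh38.p14), which were checked against hg38. A gene was marked if a peak overlapped its window of 1000 bp on either side by at least 1 bp. Its width was that of the widest such peak, and its fold enrichment the largest. Percentiles are midranks among all marked protein-coding genes of a list. Lists of over 1000 peaks were called large. No test was run, and the overlap functions were tested on simulated peaks. Values were computed in Python 3.11.15 with numpy 2.4.6 and scipy 1.17.1.

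Genes named in full were KIF11, KIF18A, KIF20A and KIF23, the 3 highest and the lowest of each role group by mean fold percentile, every unmarked gene, and the 5 with the most sequence covered within the gene. For AP-1 matches within a gene, the site in the peak with the highest fold enrichment was kept, and another is not reported here. The members, role groups, lists and motifs were chosen with earlier results of these data known. The alternatives were other windows, start sites, peak thresholds and numbers of peaks, merging of peaks, other group members, and leaving out each list. Depth is unknown, so weak peaks such as those of KIF3A may depend on it.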

Additional observations from a re-analysis of the deposited data

How the results depend on the processing

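Of 91 recomputed values for 8 results, 85 stayed within 1 SD over the lists (for counts, within 1.5 times) and 6 moved. With the strongest 50% of each list, 4 transport genes were marked in at least 2 lists, and the mitotic median percentile became 59.5. The median width over the transport genes marked in each list became 2162.5 bp. The genes lost were KIF3A, KIF3B, KIF3C, KIF13B, KIF16B and KIF7. With q of at most 0.01 the transport median width was 1600.3 bp. Without genes that share a window, 7 of 9 mitotic genes were marked and the transport median width was 1085 bp. With the kinesin-2 genes left out of the transport group, only the count of marked genes was recomputed, not the width or percentile. Windows of 500 bp or 2.5 kb and all basic start sites changed no marked gene. When each list was left out in turn, 26 kinesin genes stayed marked. That count could not change, because the same genes were marked in every large list. Leaving out MDA-MB-231 replicate 1 could change no value at all. Leaving out a large list shifts a mean over the large lists by less than 1 SD, whatever the values are. All values with a list left out are thus among the 85 by construction, and their place there shows nothing about stability. With each list left out, the mitotic median percentile ranged from 65.8 to 70.5 and the transport one from 22.3 to 28.1. No paired analysis was possible because the results come from no test. The cause of the moved values was not tested, except that leaving out the weak peaks or the shared windows changes which genes are counted. Depth is unknown, and the short MDA-MB-231 list leaves that line with 1 usable library.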

Other observations

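The kinesin genes outside the naming rule differed widely in their promoter peaks. KIFC3, a minus-end motor of cell junctions, had a promoter peak of 17439, 17581 and 16892 bp in the 3 large lists, taken in the order used above, at fold percentiles of 89.7, 90.2 and 92.6. KIFC1, a minus-end motor that gathers extra centrosomes, had percentiles of 87.2, 86.2 and 85.5, and the kinetochore motor CENPE had 29.3, 54.4 and 53.6. Among the mitotic partners ECT2, which activates RhoA at the central spindle together with centralspindlin, had percentiles of 98.9, 99.5 and 99.6, above those of KIF23. The kinase gene PLK1 was low, at 20.9, 29.3 and 27.4. These genes were named after their values were seen.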
